A study of Danio rerio with 15 samples.

Results

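The Foxo genes and a small set of growth restraint genes around them were followed through anaemic heart failure and recovery in zebrafish. Of the 10 genes chosen by symbol (foxo1a, foxo1b, foxo3a, foxo3b, fbxo32, trim63a, ddit4, irs2a, irs2b and sesn3), 9 were measured among the 19260 genes of the array. No transcript cluster (a group of probes combined into 1 value) was matched to irs2b alone, so irs2b was not analysed here. Clusters with several symbols were not used, and whether any of them covers irs2b was not examined. Where a gene had several clusters the one with the highest mean was used, which concerned foxo1a only.

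Foxo proteins are forkhead transcription factors that insulin and growth factors restrain through the kinase Akt, which phosphorylates them and keeps them out of the nucleus. In mammalian striated muscle, active Foxo raises the ubiquitin ligase genes Fbxo32 (atrogin-1) and Trim63 (MuRF1), which mark sarcomere and signalling proteins for breakdown. Ddit4 (REDD1) and Sesn3 (a sestrin) restrain mTORC1, the kinase complex that drives protein synthesis, and Irs2 is an adaptor that couples the insulin receptor to Akt; Sesn3 and Irs2 are known Foxo targets in mammalian cells. Zebrafish carry a and b copies of several of these genes.

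Each array held RNA of a pool of 3 ventricles, with 3 pools in each of 5 groups. Control fish went through the same baths without phenylhydrazine (PHZ), a compound that destroys red blood cells. The treated groups were sampled at the end of 5 weeks of PHZ in the water (baths of 30 min every 3 days, at 1.25 µg/mL for the first week and then at 2.5 µg/mL) and 2, 5 and 9 days after treatment ended. The labels state no strain, age or sex. The series was set up to follow the failing heart and its regeneration. No sampling day is given for the control pools, so days without PHZ and the day of sampling cannot be told apart. All values are log2 expression values, and a level of one gene cannot be set against a level of another.

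Array medians lay between 4.022 and 4.095. They were taken over all 75212 transcript clusters, of which 53551 had no symbol here. A level set beside these medians below only describes where a signal lay on the array. Over the 19260 genes, correlations between arrays were 0.9893 to 0.9927 within groups and 0.9709 to 0.9908 between groups. The cardiomyocyte gene myl7 averaged 13.27 to 13.40 over the groups. The per-array median over 12 skeletal muscle markers was 3.80 to 4.17 at 9 days and 4.02 to 4.36 in control. Within that list the fast myosin genes myhz1.1 and myhz2 averaged 2.93 to 3.39 over the groups, below the array medians, whereas the creatine kinase gene ckma averaged 13.02 to 13.16 and the actin gene acta1b 12.22 to 12.76. The creatine kinase gene ckmb averaged 7.61 at 9 days and 5.61 in control. Of the 12, 1 was called higher and 0 lower at 9 days against control, and 0 higher and 2 lower at the end of treatment. The per-array medians over marker lists of other cell types also differed between the groups. The per-array median over 13 erythroid markers was 7.62 to 8.37 in control pools, 9.04 to 9.37 at the end of treatment, and 9.73 to 10.1, 9.31 to 9.56 and 8.84 to 8.99 at 2, 5 and 9 days. Over 10 macrophage markers it was 5.90 to 6.47 in control pools, 7.74 to 7.97 at the end of treatment, and 7.07 to 7.65, 7.22 to 7.41 and 7.27 to 7.71 at 2, 5 and 9 days. Over 8 endothelial markers it was 8.69 to 8.82, 9.37 to 9.44, 9.17 to 9.30, 9.04 to 9.14 and 8.84 to 9.03 in the same order. Each of these 3 per-array medians was higher in all treated pools than in all control pools. Gene by gene, 10 erythroid markers were higher and 1 lower than control at the end of treatment, and all 10 macrophage markers were higher. Of the 8 endothelial markers 4 were higher and 1 was lower at the end of treatment, with a median gene difference of 0.21, and 1 was higher at 9 days, with a median of 0.10. Among them tek averaged 7.12 at the end of treatment and 8.07 in control, and kdrl 9.99 and 10.04. By group means the 2 middle genes of this list were tie1 and sox18 at both points. The mean of sox18 was 9.90 at the end of treatment and 8.91 in control, and that of tie1 8.87 and 8.58. The rise of the endothelial per-array median therefore rests largely on sox18. Of 11 measured cardiomyocyte markers, 1 (the stress-induced peptide gene nppa) was higher and 5 were lower at the end of treatment than in control, with a median gene difference of -0.19. The per-array median over that list still lay at 12.29 to 12.42 at the end of treatment and at 11.47 to 11.63 in control, so the 2 summaries differ in sign. The per-array median follows the middle gene of the list. By group means that gene was tnni1b in control (11.54) and nppa at the end of treatment (12.39). The mean of nppa was 10.98 in control, and that of tnni1b was 11.55 at the end of treatment. Of 10 fibroblast and epicardium markers 5 were lower at 9 days than in control, and the per-array median over 8 liver markers was 3.53 to 4.29 over all arrays. The part of these cells in the results below was not tested beyond a fit with the erythroid median as a covariate. In whole ventricles, fewer cells of a type and less RNA per cell cannot be told apart.

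Differences were tested with limma on all 15 arrays, with Benjamini-Hochberg adjustment over all 19260 genes within a comparison; "called" means an adjusted p under 0.05, and errors of differences are standard errors. An exact permutation of 3 against 3 pools can go no lower than p = 0.1, so the calls rest on limma's shared variance model. The variance in that model comes from the spread between these pools within the 5 groups, moderated over all genes. Spread from sources that did not vary between the pools of a group is not covered. All comparisons with control share the same 3 control arrays, and all comparisons with the end of treatment share its arrays.

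**Figure D1:**
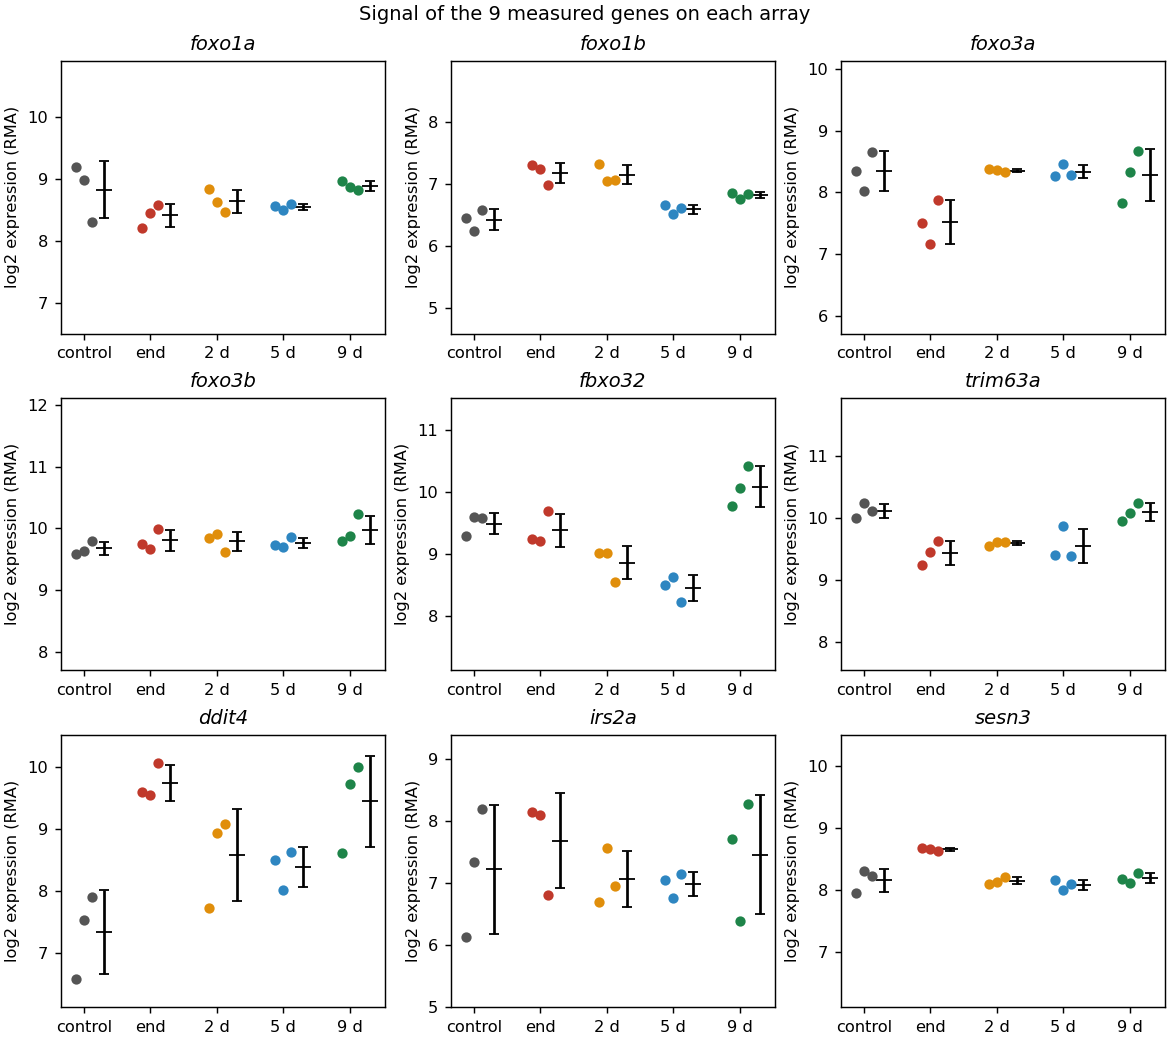
Signal of the 9 measured genes on each array. The y axes show log2 expression after RMA, with the same span in every panel, each centred on its own gene's values. The x axes show the 5 groups of 3 pools. Points are single arrays, with the group mean and SD in black beside them. ddit4 is lowest in the control pools, sesn3 is high at the end of treatment, and fbxo32 is lowest at 5 days and highest at 9 days.

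Of the 9 measured genes, 6 differed between the groups in the F test over all 5 groups, against 26.9% of all genes: foxo1b (adjusted p = 0.0002005), foxo3a (adjusted p = 0.01108), fbxo32 (adjusted p = 2.732e-05), trim63a (adjusted p = 0.0006509), ddit4 (adjusted p = 0.001007) and sesn3 (adjusted p = 0.0008138). The F test did not call foxo1a, foxo3b or irs2a. Whether their courses differed from each other was not tested.

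The 4 Foxo genes are described first, as the transcription factors of the set. When treatment ended, foxo1b had risen and foxo3a had fallen relative to control. In the main fit foxo1a and foxo3b were not called against control at any time, but some alternatives given below called foxo1a. By 2 days foxo3a was near control. At 5 days foxo1b was not called against control, and at 9 days it was called higher (limma adjusted p = 0.0438), a call that single arrays could remove. Between 9 and 5 days limma did not call foxo1b (0.22 ± 0.11, adjusted p = 0.308), though these pools did not overlap.

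The signal of foxo1b was 6.45, 6.25 and 6.58 in the control pools, 7.31, 7.24 and 6.99 at the end of treatment, 7.33, 7.06 and 7.07 at 2 days, 6.66, 6.51 and 6.61 at 5 days, and 6.86, 6.76 and 6.84 at 9 days. Every pool at the end of treatment, at 2 days and at 9 days lay above every control pool, and the 5 day pools overlapped with control. The difference from control was 0.75 ± 0.11 at the end of treatment (1.69-fold, limma adjusted p = 0.000102) and 0.73 ± 0.11 at 2 days (adjusted p = 0.000445). At 5 days it was 0.17 ± 0.11 (adjusted p = 0.451), and at 9 days 0.39 ± 0.11 (adjusted p = 0.0438). Relative to the end of treatment foxo1b fell by 0.58 ± 0.11 at 5 days (adjusted p = 0.0024) and by 0.36 ± 0.11 at 9 days (adjusted p = 0.0336). The 5 day pools lay below every 2 day pool, with a difference of -0.56 ± 0.11 that missed the threshold (adjusted p = 0.0555). In order of their means the groups ran control, 5 days, 9 days, 2 days and end of treatment; the neighbours control and 5 days overlapped, and so did 2 days and end of treatment.

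The foxo1b calls at the end of treatment, at 2 days and between 5 days and the end of treatment held whichever array was left out. The call at 9 days against control was lost in 9 of the 15 fits that each left out 1 array, including those without control replicate 1 (adjusted p = 0.0952), control replicate 2 (0.175) or 9 day replicates 1, 2 or 3 (0.110, 0.0765 and 0.121); over the 15 fits its adjusted p was 0.0366 to 0.175. The call between 9 days and the end of treatment was lost without end of treatment replicate 1 (adjusted p = 0.141) or replicate 2 (0.111) and without any one 9 day pool (0.0589, 0.106 and 0.068), in a range of 0.0158 to 0.141. With the erythroid median as a covariate the end of treatment stayed above control (adjusted p = 0.0499), and the calls against control at 2 days (1.12 ± 0.40, adjusted p = 0.433) and at 9 days (0.60 ± 0.23, adjusted p = 0.304) were lost.

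The signal of foxo3a was 8.35, 8.02 and 8.66 in the control pools, 7.51, 7.17 and 7.87 at the end of treatment, 8.38, 8.36 and 8.32 at 2 days, 8.27, 8.46 and 8.29 at 5 days, and 7.83, 8.33 and 8.68 at 9 days. The 3 pools at the end of treatment were the lowest in the series apart from 1 pool at 9 days, which fell among them. Relative to control foxo3a was lower at that point, by a difference of -0.83 ± 0.20 (0.564-fold, adjusted p = 0.0047). The differences from control were 0.01 ± 0.20 at 2 days, -0.01 ± 0.20 at 5 days and -0.07 ± 0.20 at 9 days, with a 95% interval of -0.41 to 0.42 at 2 days. Against that low point foxo3a was higher by 0.83 ± 0.20 at 2 days (adjusted p = 0.0131), by 0.82 ± 0.20 at 5 days (adjusted p = 0.0103) and by 0.76 ± 0.20 at 9 days (adjusted p = 0.0109), where the pools overlapped. All neighbours in the order of the group means overlapped.

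The fall of foxo3a against control held in all 15 fits with 1 array left out. Without end of treatment replicate 2, the lowest pool, the calls against the end of treatment were lost at 2 days (adjusted p = 0.0779, range over the 15 fits 0.00523 to 0.0779), at 5 days (0.0638, range 0.00405 to 0.0638) and at 9 days (0.0683, range 0.00181 to 0.0683); the last was also lost without 9 day replicate 3 (0.0633). With the erythroid covariate the difference between the end of treatment and control was -0.46 ± 0.47 (adjusted p = 0.676) and that between 2 days and the end of treatment was 1.05 ± 0.32 (adjusted p = 0.134), so both calls were lost.

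The signal of foxo1a, from the cluster with the higher mean, was 9.20, 8.98 and 8.31 in the control pools, 8.22, 8.45 and 8.58 at the end of treatment, 8.83, 8.64 and 8.46 at 2 days, 8.57, 8.50 and 8.60 at 5 days, and 8.97, 8.87 and 8.82 at 9 days. The control pools spread over nearly the whole range of the gene, with replicate 3 far below the others. The difference from control was -0.41 ± 0.17 at the end of treatment (adjusted p = 0.0828, 95% interval -0.76 to -0.06), and at the later times it lay between -0.27 and 0.06. The 9 day pools lay above every pool at the end of treatment, by 0.47 ± 0.17 (adjusted p = 0.0573).

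Those foxo1a values turned on single arrays. Without control replicate 3 the difference from control was -0.67 at the end of treatment (adjusted p = 0.000822, range over the 15 fits 0.000822 to 0.380), -0.44 at 2 days (0.0319, range 0.0319 to 0.998) and -0.53 at 5 days (0.0211, range 0.0211 to 0.832). The difference between 9 days and the end of treatment passed without control replicate 1 (adjusted p = 0.0306) or control replicate 3 (0.00575), in a range of 0.00575 to 0.211. It also passed with arrays centred on their medians (0.56 ± 0.16, adjusted p = 0.0197), with the mean of both clusters (adjusted p = 0.0301), with only the 2 groups in the fit (adjusted p = 0.0127) and with the erythroid covariate (adjusted p = 0.0406). Centred arrays also gave a call at the end of treatment against control (-0.53 ± 0.16, adjusted p = 0.0209). The second foxo1a cluster read 9.11, 8.75 and 8.15 in the control pools, 7.93, 8.08 and 8.37 at the end of treatment, 8.59, 8.37 and 8.14 at 2 days, 8.28, 8.18 and 8.24 at 5 days, and 8.76, 8.77 and 8.79 at 9 days. Its order of the pools matched that of the first cluster in control, at the end of treatment and at 2 days, and differed at 5 and 9 days. Its differences were -0.54 ± 0.19 at the end of treatment against control (adjusted p = 0.105 over all clusters) and 0.65 ± 0.19 at 9 days against the end of treatment (adjusted p = 0.0653).

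The signal of foxo3b was 9.59, 9.64 and 9.80 in the control pools, 9.75, 9.67 and 9.99 at the end of treatment, 9.85, 9.90 and 9.61 at 2 days, 9.73, 9.70 and 9.86 at 5 days, and 9.80, 9.89 and 10.23 at 9 days. The groups overlapped except 9 days and control, where the lowest 9 day pool lay just above the highest control pool. That difference was 0.30 ± 0.11 (adjusted p = 0.135, 95% interval 0.05 to 0.54), and the differences from control at the other times were 0.09 to 0.13. Whether the a and b copies of foxo1 and foxo3 differed in their changes was not tested.

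**Figure D2:**
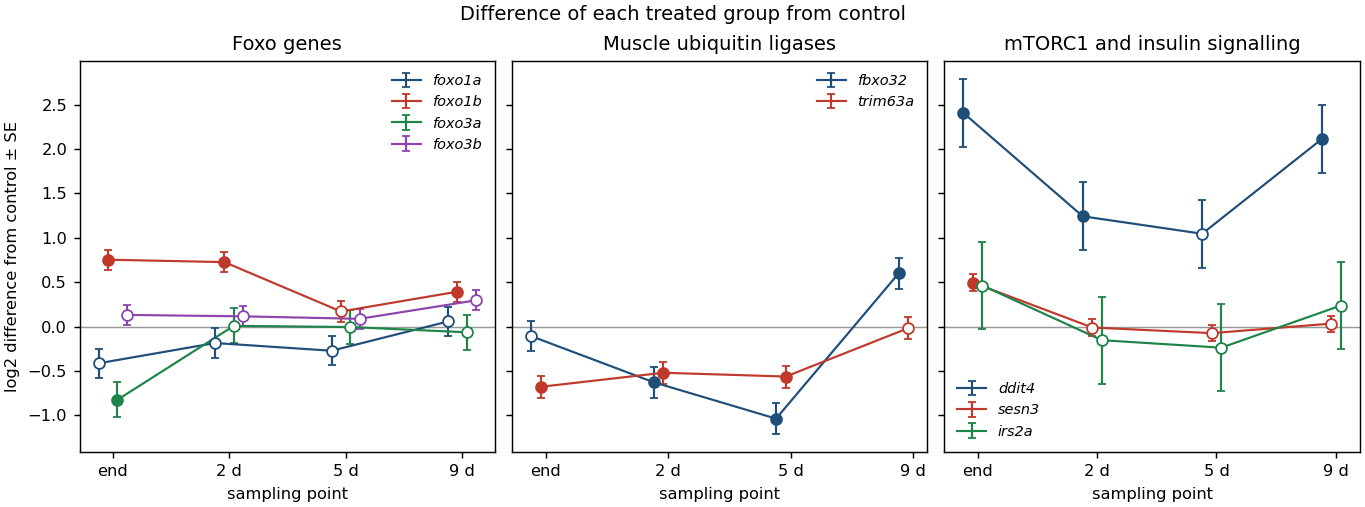
Difference of each treated group from control. The y axis shows the log2 difference with its standard error from the limma fit and the x axis the sampling point; filled points passed the test at an adjusted p under 0.05 and open points did not. foxo1b lies above 0 and foxo3a below 0 at the end of treatment, fbxo32 goes to -1.04 at 5 days and 0.60 at 9 days, and ddit4 is 2.41 at the end of treatment and 2.11 at 9 days.

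The 2 muscle ubiquitin ligase genes of the set were lower than in control during part of the course and both were higher at 9 days than at 5 days. The atrogin-1 gene fbxo32 had its lowest values at 5 days and its highest at 9 days. The MuRF1 gene trim63a was below control at the end of treatment, at 2 days and at 5 days, and at 9 days it overlapped with control.

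The signal of fbxo32 was 9.29, 9.59 and 9.58 in the control pools, 9.24, 9.22 and 9.69 at the end of treatment, 9.02, 9.02 and 8.55 at 2 days, 8.50, 8.63 and 8.22 at 5 days, and 9.77, 10.07 and 10.42 at 9 days. All pools of 2 and 5 days lay below all control pools, and all 9 day pools lay above every other pool in the series. At the end of treatment the difference from control was -0.11 ± 0.17 (adjusted p = 0.735). It was -0.63 ± 0.17 at 2 days (adjusted p = 0.0256), -1.04 ± 0.17 at 5 days (0.487-fold, adjusted p = 0.00149) and 0.60 ± 0.17 at 9 days (1.51-fold, adjusted p = 0.0441). Between 9 and 5 days the difference was 1.64 ± 0.17 (3.11-fold, adjusted p = 3.83e-05), the 22nd in absolute size of all genes in that comparison. Relative to the end of treatment fbxo32 was lower at 5 days by a difference of -0.93 ± 0.17 (adjusted p = 0.00169) and higher at 9 days by 0.71 ± 0.17 (adjusted p = 0.00784). At 2 days the pools lay below all those of the end of treatment, with -0.52 ± 0.17 (adjusted p = 0.0815). In the order of the group means, 5 and 2 days overlapped, as did the end of treatment and control, and 9 days stood apart above them.

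The fbxo32 calls between 5 days and control, between 5 days or 9 days and the end of treatment, and between 9 and 5 days held in all 15 fits with 1 array left out. The call at 9 days against control was lost in 8 of the 15, including each fit without 1 control pool (adjusted p = 0.166, 0.0738 and 0.0718) and those without 9 day replicate 2 (0.0939) or replicate 3 (0.202), in a range of 0.0206 to 0.202. The call at 2 days against control was lost without control replicate 2 (adjusted p = 0.0813), control replicate 3 (0.0863) or 2 day replicate 3 (0.134), in a range of 0.0148 to 0.134. With the erythroid covariate the calls against control were lost at 2 days (-1.30 ± 0.61, adjusted p = 0.557), 5 days (-1.56 ± 0.49, adjusted p = 0.286) and 9 days (0.25 ± 0.34, adjusted p = 0.819). The other 3 fbxo32 calls were kept with it.

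The signal of trim63a was 9.99, 10.23 and 10.11 in the control pools, 9.23, 9.44 and 9.62 at the end of treatment, 9.55, 9.61 and 9.61 at 2 days, 9.40, 9.87 and 9.38 at 5 days, and 9.96, 10.08 and 10.25 at 9 days. The pools fell into a higher set, control and 9 days, and a lower set, the other 3 groups, with no pool between them in the other set's range. Relative to control the difference was -0.68 ± 0.12 at the end of treatment (0.625-fold, adjusted p = 0.000589), -0.52 ± 0.12 at 2 days (adjusted p = 0.0107) and -0.56 ± 0.12 at 5 days (adjusted p = 0.0114). At 9 days it was -0.02 ± 0.12 (adjusted p = 0.961, 95% interval -0.28 to 0.24). The 9 day pools were higher than those of the end of treatment by 0.66 ± 0.12 (adjusted p = 0.0011) and than those of 5 days by 0.55 ± 0.12 (adjusted p = 0.0144).

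Without 5 day replicate 3 the call of trim63a at 5 days against control was lost (adjusted p = 0.0574, range over the 15 fits 0.00146 to 0.0574). The call between 9 and 5 days was lost without 5 day replicate 1 (adjusted p = 0.0534), 5 day replicate 3 (0.0779) or 9 day replicate 3 (0.0708), in a range of 0.00209 to 0.0779. The other 3 calls held in all 15 fits. With the erythroid covariate the difference from control was -0.81 ± 0.30 at the end of treatment (adjusted p = 0.161), -0.73 ± 0.45 at 2 days (adjusted p = 0.678) and -0.73 ± 0.36 at 5 days (adjusted p = 0.499), so these calls were lost, as was that between 9 and 5 days (adjusted p = 0.0845). The call between 9 days and the end of treatment was kept.

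Of the mTORC1 inhibitor genes, ddit4 gave the largest differences from control among the 9 genes, at the end of treatment and again at 9 days. In mammals Ddit4 is induced by hypoxia, glucocorticoids and energy stress and acts through the TSC complex. The sestrin gene sesn3 rose at the end of treatment only and was back near control at 2 days.

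The signal of ddit4 was 6.58, 7.53 and 7.91 in the control pools, 9.61, 9.56 and 10.08 at the end of treatment, 7.73, 8.94 and 9.08 at 2 days, 8.51, 8.02 and 8.63 at 5 days, and 8.61, 9.73 and 10.01 at 9 days. The control pools were the lowest, with an overlap between the highest control pool and the lowest 2 day pool, and spread widely (SD 0.682). Its level at the end of treatment was higher than in control by 2.41 ± 0.38 (5.30-fold, adjusted p = 0.000176), the 51st change in absolute size among all genes. At 9 days it was higher by 2.11 ± 0.38 (4.32-fold, adjusted p = 0.00345), the 8th among all genes. At 2 days the difference was 1.24 ± 0.38 (2.36-fold, adjusted p = 0.0452), and at 5 days, where no pool overlapped with control, 1.04 ± 0.38 (adjusted p = 0.125). Relative to the end of treatment ddit4 fell by 1.36 ± 0.38 at 5 days (adjusted p = 0.0267), with -1.17 ± 0.38 at 2 days (adjusted p = 0.0781) and -0.30 ± 0.38 at 9 days (adjusted p = 0.686). Between 9 and 5 days the difference was 1.06 ± 0.38 with overlapping pools (adjusted p = 0.122).

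The ddit4 calls at the end of treatment and at 9 days against control held in all 15 fits with 1 array left out. The call at 2 days was lost in 10 of them, with 0.86 and an adjusted p of 0.214 without control replicate 1 and adjusted p values of 0.0689, 0.159 and 0.188 without control replicate 2 or 2 day replicates 2 or 3, in a range of 0.00952 to 0.214. The call at 5 days against the end of treatment was lost without any one pool of the end of treatment (adjusted p = 0.0537, 0.0522 and 0.102) and without 5 day replicate 1 (0.0529) or replicate 2 (0.112), in a range of 0.0129 to 0.112. Leaving out 9 day replicate 1 gave calls at 2 days against the end of treatment (adjusted p = 0.0423) and at 9 against 5 days (0.031). With the replicate number as a block in the fit, ddit4 was called in both of these comparisons (adjusted p = 0.0105 and 0.025). The block also gave a call at 5 days against control (0.0258). Over all genes the replicate numbers did not pair the samples, with correlations of -0.161 to 0.0983 between same-numbered arrays after group means were removed. Between differently numbered arrays they were -0.125 to 0.143. Correlations over all genes cannot show whether ddit4 itself followed the replicate number, and its replicate 3 was the highest pool in each of the 5 groups. With the erythroid covariate the differences from control were 2.21 ± 0.94 at the end of treatment (adjusted p = 0.226) and 1.95 ± 0.80 at 9 days (adjusted p = 0.344), and none of the 4 ddit4 calls was kept.

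The signal of sesn3 was 7.95, 8.30 and 8.22 in the control pools, 8.67, 8.66 and 8.63 at the end of treatment, 8.10, 8.13 and 8.21 at 2 days, 8.16, 7.99 and 8.09 at 5 days, and 8.18, 8.11 and 8.28 at 9 days. The 3 pools at the end of treatment lay close together (SD 0.0211) and above all other 12 arrays. The difference from control was 0.50 ± 0.09 (1.41-fold, adjusted p = 0.000616). At the later times it was -0.01 ± 0.09, -0.07 ± 0.09 and 0.03 ± 0.09, with a 95% interval of -0.20 to 0.18 at 2 days. After the end of treatment sesn3 fell, relative to it, by 0.51 ± 0.09 at 2 days (adjusted p = 0.00197), by 0.57 ± 0.09 at 5 days (adjusted p = 0.000513) and by 0.46 ± 0.09 at 9 days (adjusted p = 0.00161). These 4 calls held in all 15 fits with 1 array left out. With the erythroid covariate the difference between the end of treatment and control was 0.25 ± 0.21 (adjusted p = 0.585), and the 3 falls after the end of treatment were kept.

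The signal of irs2a was 6.12, 7.34 and 8.20 in the control pools, 8.15, 8.10 and 6.80 at the end of treatment, 6.69, 7.56 and 6.95 at 2 days, 7.05, 6.76 and 7.14 at 5 days, and 7.71, 6.39 and 8.27 at 9 days. Pools of 1 group lay up to about as far apart as any pools in the series, and all groups overlapped. The differences from control were between -0.24 and 0.46 with a standard error of 0.49, the largest among the 9 genes, and the 95% interval at 5 days was -1.27 to 0.80.

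Counted over the 9 genes, 3 were higher and 2 lower than control at the end of treatment, when 14.6% of all genes were called higher and 9.6% lower, 24.2% together. Against the same control pools 2 were higher and 2 lower at 2 days (7.62% and 4.15% of all genes, 11.8% together), 0 higher and 2 lower at 5 days (3.9% and 2.47%, 6.37% together), and 3 higher and 0 lower at 9 days (4.24% and 3.3%, 7.54% together). Against the end of treatment 1 was higher and 1 lower at 2 days (3.52% and 4.45% of all genes, 7.98% together), 1 higher and 4 lower at 5 days (4.34% and 8.01%, 12.3% together), and 3 higher and 2 lower at 9 days (7.38% and 11.6%, 19% together). Between 5 and 2 days limma called 0 of them (0.0363% of all genes higher and 0.151% lower, 0.187% together), and 2 of the 9 had an unadjusted p under 0.05. Between 9 and 5 days 2 were higher and 0 lower (2.87% and 3.25% of all genes, 6.12% together), both of them ubiquitin ligase genes. The split of all genes depended on the scaling. With cyclic loess the majority of calls had the same direction as deposited in every comparison. The share that was higher with it was 63.7%, 67%, 70% and 60.3% at the end of treatment and at 2, 5 and 9 days against control. Against the end of treatment it was 40.6%, 35.9% and 37.5% at 2, 5 and 9 days, and between 9 and 5 days 43.2%. With arrays centred on their medians the share of calls that were higher was 39.7% (60.4% as deposited) at the end of treatment, 41.6% (64.7%) at 2 days and 46.6% (61.3%) at 5 days against control, 54.3% (35.1%) and 58.1% (38.8%) at 5 and 9 days against the end of treatment, and 38.9% (19.4%, and 30% with cyclic loess) between 5 and 2 days. In the other comparisons it was 46.8% (56.2%) at 9 days against control, 53.3% (44.1%) at 2 days against the end of treatment and 51.1% (46.9%) between 9 and 5 days. The genes were chosen with earlier results of these data known, so these counts are a description. The same centring gave counts among the 9 genes of 3 higher and 3 lower at the end of treatment, 1 and 2 at 2 days and 1 and 0 at 9 days against control, and 4 and 1 at 9 days against the end of treatment. The median difference of the 9 genes from control was 0.13 at the end of treatment, -0.01 at 2 days, -0.07 at 5 days and 0.24 at 9 days, against 0.01, 0.01, 0.02 and 0.01 for all genes.

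Groups without overlap were counted likewise. At the end of treatment 5 of the 9 genes had no overlap with control (38.1% of all genes), at 2 days 3 (28.1%), at 5 days 3 (23%) and at 9 days 4 (25.5%). Against the end of treatment there were 4 at 2 days (25.9%), 5 at 5 days (28%) and 5 at 9 days (33.9%), then 1 between 5 and 2 days (14%) and 4 between 9 and 5 days (21.7%). In all, 28 of 81 differences of the 9 genes were called, of which 17 were kept in all fits that left out 1 array and also in all 10 other settings apart from the erythroid covariate. The 8 lost in at least 1 of those 10 settings, with the highest adjusted p among them, were foxo1b (0.116) and fbxo32 at 9 days (0.141), fbxo32 (0.0912) and ddit4 (0.149) at 2 days, all against control, foxo3a at 2 days (0.0625), ddit4 at 5 days (0.107) and foxo1b at 9 days (0.127) against the end of treatment, and trim63a between 9 and 5 days (0.0613). With the erythroid covariate 12 of the 28 were kept. Over all 81 differences the standard errors were a median of 1.62 times those of the main fit. The change was uneven: for ddit4, with 0.38 in the main fit, it was 1.4 at 2 days against control. At 5 days against the end of treatment the ddit4 standard error was 0.44. Among the comparisons with control the 1 call kept with it was that of foxo1b at the end of treatment. The erythroid median had no overlap between control and any treated group, so the covariate and these comparisons largely carry the same contrast.

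Across the 15 arrays, as a description of points that share their groups, fbxo32 and trim63a had a Pearson correlation of 0.682 (Spearman's rho 0.732), and 0.663 after the group means were removed. At 9 days both were high, and at the end of treatment fbxo32 was near control while trim63a was low. For ddit4 and sesn3 it was 0.631, and 0.593 after the group means were removed. Against fbxo32 the Pearson correlation was 0.361 for foxo1a, -0.024 for foxo1b, 0.00279 for foxo3a and 0.523 for foxo3b. With group means removed these were -0.0224, -0.225, 0.655 and 0.76 in the same order. Against trim63a it was 0.562 for foxo1a, -0.609 for foxo1b, 0.482 for foxo3a and 0.181 for foxo3b, and -0.0245, -0.591, 0.398 and 0.281 with group means removed. The lowest correlation was that of foxo3a with sesn3, at -0.76, which was -0.0776 with group means removed.

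**Figure D3:**
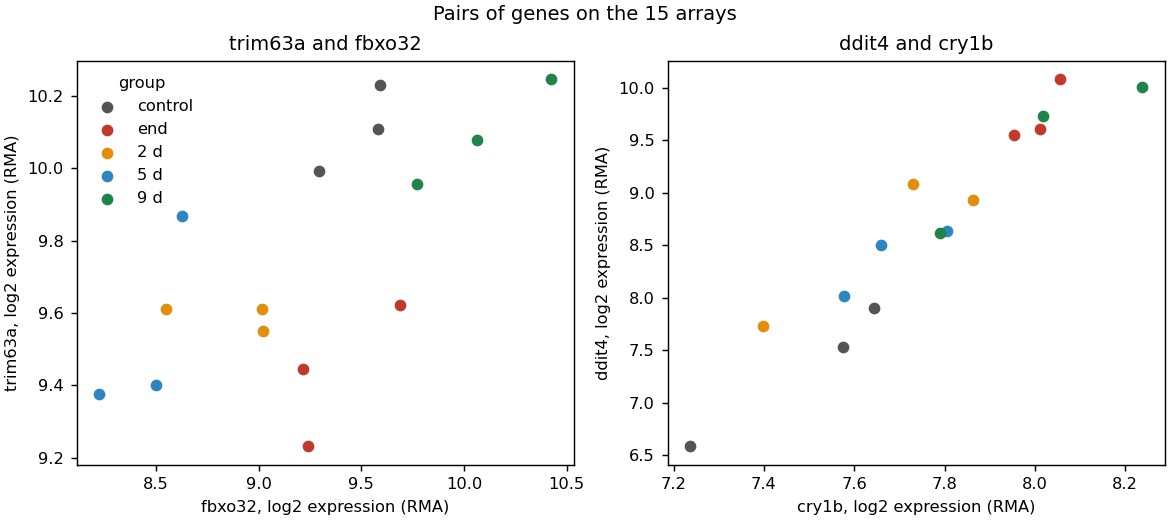
Pairs of genes on the 15 arrays. Each point is 1 array, coloured by group, with log2 expression after RMA on both axes; the left panel sets trim63a against fbxo32 and the right panel ddit4 against cry1b. At the end of treatment the arrays lie low for trim63a at control-like values of fbxo32, and in the right panel the arrays run along a common line with a correlation of 0.957.

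For each gene called in the F test, the 3 genes with the most similar course were taken by their Pearson correlation over the 15 arrays. For ddit4 these were cry1b, a cryptochrome gene (0.957), adrb2b, a beta-adrenergic receptor gene (0.934), and txnipa, a thioredoxin-interacting protein gene (0.923). The cry1b signal was 7.24, 7.58 and 7.64 in the control pools, 8.01, 7.95 and 8.05 at the end of treatment, 7.40, 7.86 and 7.73 at 2 days, 7.66, 7.58 and 7.80 at 5 days, and 7.79, 8.02 and 8.24 at 9 days. It ranked the pools within groups nearly as ddit4 did, and with group means removed their correlation was 0.943. For ddit4 with adrb2b and txnipa it was 0.839 and 0.788. For fbxo32 the nearest genes were dhrs1, a dehydrogenase gene (0.966), klhl38b, a kelch family gene (0.949), and rbm48 (0.934), with 0.879, 0.897 and 0.725 after removal of group means. For trim63a the nearest genes were kdm4ab, a histone demethylase gene (0.931), iscub, a gene of iron-sulphur cluster assembly (0.922), and pja2, a ubiquitin ligase gene (0.91). After removal of group means these were 0.926, 0.741 and 0.655.

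For foxo1b the nearest genes were cttnbp2nlb (0.929), the chemokine gene cxcl20 (0.91) and the glutamate dehydrogenase gene glud1a (0.906), with 0.686, 0.607 and 0.387 after removal of group means. For foxo3a they were lmx1a (0.867), podxl (0.855) and ptdss2 (0.853), with 0.733, 0.645 and 0.733 after that removal. The signal of lmx1a averaged 3.85 at the end of treatment and 4.18 in control, below and just above the array medians. For sesn3 the nearest genes were rufy2 (0.94), the phosphatase gene ppm1h (0.94) and cuedc1b (0.935), with 0.829, 0.73 and 0.708 after that removal. The correlations over the 15 arrays are the highest among all genes with a name. No correlation here carries a test.

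Lists of other genes of the same pathways were examined as well. The share of all genes called in either direction stands beside each count, and nothing is called particular to a list from it. Of 17 measured muscle ubiquitin ligase genes, 1 was higher and 5 were lower at the end of treatment than in control (24.2% of all genes in either direction), 0 and 4 at 2 days (11.8%), 0 and 2 at 5 days (6.37%), and 1 and 0 at 9 days (7.54%). Their median difference was -0.12 at the end of treatment and 0.08 at 9 days. At that first point nedd4l, a HECT-type ligase gene, had -0.57 ± 0.07, klhl40a, a kelch gene of striated muscle, -0.71 ± 0.15, and fbxo9, an F-box gene, -0.34 ± 0.08, all called. The gene that was higher was fbxo40.2, whose mammalian counterpart targets IRS1, at 1.02 ± 0.16, with levels of 4.12 at the end of treatment and 3.09 in control, the control level below the array medians. Of the 17, 5 were higher and 1 lower at 9 days than at the end of treatment (19% of all genes). With arrays centred on their medians the counts against control at the end of treatment and at 2 days were 1 higher and 8 lower, and 0 and 6.

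Of 45 measured genes that are Foxo targets in other vertebrates (47 were listed), 12 were higher and 7 lower than control at the end of treatment (24.2% of all genes), 8 and 6 at 2 days (11.8%), 4 and 5 at 5 days (6.37%), and 14 and 1 at 9 days (7.54%). Their median difference at 9 days was 0.25, against 0.01 for all genes. Between 9 and 5 days 18 were higher and 1 lower, with a median of 0.26, when 6.12% of all genes were called. The pyruvate dehydrogenase kinase gene pdk2a was higher than control by 1.05 ± 0.11 at the end of treatment and by 1.08 ± 0.11 at 9 days, with 0.34 ± 0.11 at 5 days, where it was not called. The antiproliferative gene tob1b fell by 0.61 ± 0.09 at the end of treatment and by 0.79 ± 0.09 at 5 days relative to control, and was higher by 0.90 ± 0.09 at 9 than at 5 days. The glucocorticoid-induced factor gene klf15 was lower than control at all 4 times, with -1.40 ± 0.12 at the end of treatment and -0.69 ± 0.12 at 9 days. The translation repressor gene eif4ebp1 had -0.81 ± 0.08 at the end of treatment and 0.05 ± 0.08 at 9 days, the first of which was called. With arrays centred on their medians the counts against control were 12 higher and 10 lower at the end of treatment, 6 and 9 at 2 days, and 13 and 1 at 9 days; with cyclic loess at 5 days they were 5 and 4.

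The insulin receptor to Akt list, upstream of Foxo, had 52 measured genes, of which 10 were higher and 8 lower than control at the end of treatment (24.2% of all genes), 6 and 1 at 2 days (11.8%), 5 and 3 at 5 days (6.37%), and 8 and 4 at 9 days (7.54%). Their median difference from control was 0.02 to 0.08 at the 4 times. The cytokine signalling suppressor gene socs3b was higher than control by 2.06 ± 0.20 at the end of treatment and had 0.21 ± 0.20 at 9 days. The Akt gene akt3b was higher by 0.61 ± 0.08 at the end of treatment and by 0.49 ± 0.08 at 9 days. The kinase gene sgk2a was higher than control after the end of treatment only, with 0.99 ± 0.16 at 2 days and 0.66 ± 0.16 at 9 days, and ywhah, which encodes a 14-3-3 protein of the kind that holds phosphorylated Foxo in the cytoplasm, was lower at 9 than at 5 days by a difference of -0.70 ± 0.10. With centred arrays the counts against control were 9 higher and 11 lower at the end of treatment, 6 and 4 at 2 days, and 8 and 7 at 9 days.

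Of 66 measured genes of mTORC1 and its regulators, 9 were higher and 11 lower than control at the end of treatment (24.2% of all genes), 10 and 7 at 2 days (11.8%), 2 and 5 at 5 days (6.37%), and 7 and 4 at 9 days (7.54%). Their median difference from control was -0.04 to 0.02 at the 4 times. The translation repressor gene eif4ebp2 was higher by 0.59 ± 0.07 at the end of treatment, opposite to eif4ebp1, which this list shares. The arginine sensor family gene castor2 was higher by 0.73 ± 0.09, and prkag2a, which encodes a subunit of the energy sensor AMPK, was lower with -0.62 ± 0.07. At 9 days against the end of treatment 12 were higher and 3 lower (19% of all genes), and with arrays centred on their medians 17 and 2. With centred arrays the counts at the end of treatment were 7 higher and 18 lower, and at 2 days 6 and 10; with cyclic loess they were 6 and 4 at 5 days.

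Of 19 measured glucocorticoid response genes, 2 were higher and 4 lower than control at the end of treatment (24.2% of all genes). At 2 days 1 was higher and 1 lower (11.8%), at 5 days 1 and 0 (6.37%), and at 9 days 6 and 1 (7.54%). Their median difference from control was -0.05 at the end of treatment and 0.27 at 9 days. At 9 days relative to the end of treatment 9 were higher and 0 lower, with a median of 0.49, when 19% of all genes were called. The kinase gene sgk1 was higher than control at all 4 times, by 0.55 ± 0.15, 0.73 ± 0.15, 0.78 ± 0.15 and 0.75 ± 0.15. The inhibitor gene of NF-kappaB nfkbiab was higher at 9 days by 0.98 ± 0.18, and cebpb by 1.21 ± 0.17 at the end of treatment and 0.76 ± 0.17 at 9 days. The clock gene per1b was lower at the end of treatment, with -0.52 ± 0.10. Centred arrays gave, at the end of treatment, 2 higher and 5 lower, and at 2 days 1 and 2, against 1 and 1. At 9 days relative to the end of treatment they gave 11 higher and 0 lower. The glucocorticoid-induced factor gene klf15, described above, is not counted in this list. It was lower than control at all 4 times.

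Among 27 other measured forkhead genes, 1 was higher and 1 lower than control at the end of treatment (24.2% of all genes), 1 and 2 at 2 days (11.8%), 1 and 0 at 5 days (6.37%), and limma called 0 at 9 days (7.54%). At 9 days 5 were higher and 1 lower than at the end of treatment (19%), and 4 higher and 1 lower than at 5 days (6.12%). The higher one at the end of treatment was foxm1, a factor of the cell division cycle, with 2.01 ± 0.17 at the end of treatment, 1.68 ± 0.17 at 2 days, 1.80 ± 0.17 at 5 days and 0.28 ± 0.17 at 9 days, when it was not called; its level was 5.93 at the end of treatment and 3.92 in control, and 3.92 lies below the array medians. The lower one was foxo4, a further Foxo gene outside the set, with -0.37 ± 0.10 at the end of treatment and 0.21 ± 0.10 at 9 days. At 2 days foxo4 was also called lower than control (-0.38 ± 0.10), and it was higher at 9 days than at the end of treatment by 0.58 ± 0.10. The genes foxk1 and foxp1a were also named by the F test; foxk1 was higher at 9 than at 5 days by 0.70 ± 0.14, and foxp1a was lower than control at 2 days with -0.50 ± 0.12. Centred arrays gave 1 higher and 4 lower at the end of treatment and 1 and 3 at 5 days.

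**Figure D4:**
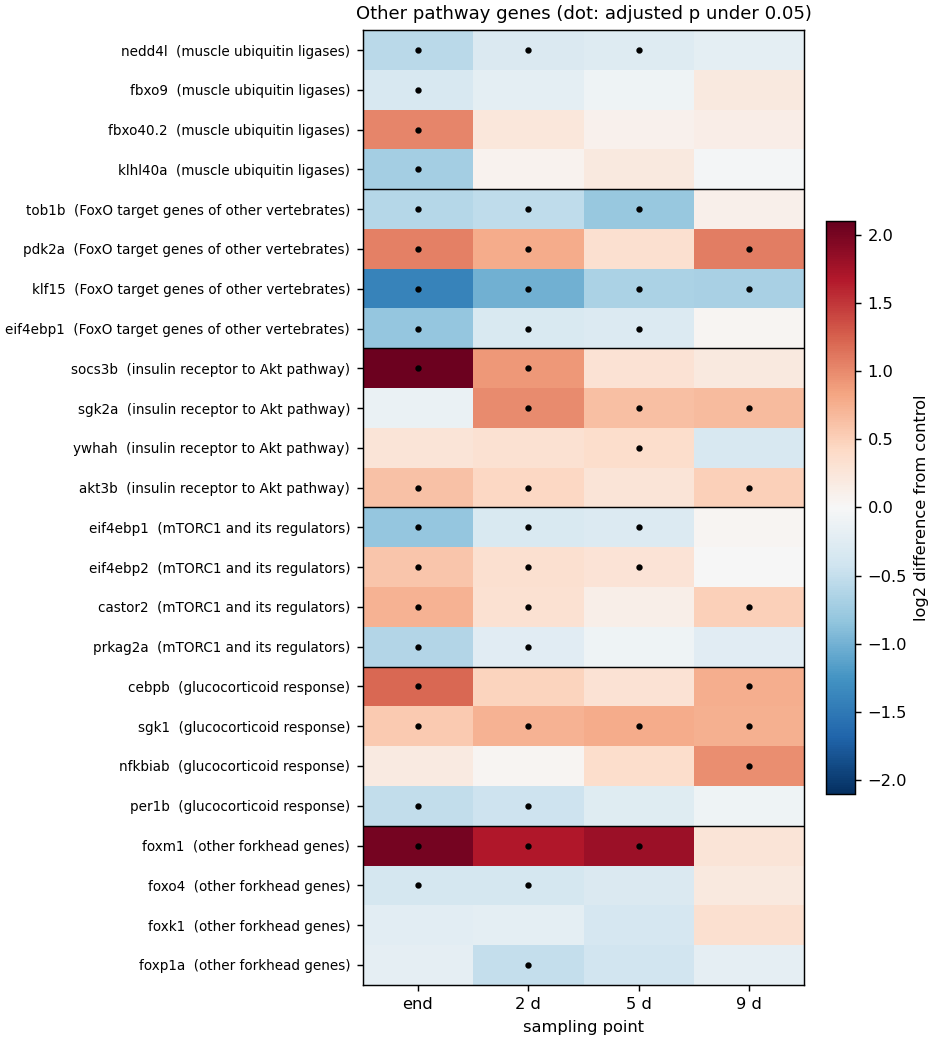
Differences from control of the other pathway genes named by the F test, by list. Columns are the sampling points, the colour is the log2 difference from control, and a dot marks an adjusted p under 0.05. socs3b and foxm1 are the darkest at the end of treatment (2.06 and 2.01), and pdk2a is about as high at 9 days (1.08) as at the end of treatment (1.05).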

How the data were processed

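The authors deposited log2 expression values of 75212 transcript clusters, made with RMA in the R package oligo per the submitters' processing notes, from 250 ng of total RNA per array. RMA removes background, equalises the quantiles of the arrays and combines the probes of a cluster by median polish. No version, probe set level or genome build was given in the sources used here. Of the clusters 20806 had exactly 1 symbol in the array annotation, 855 had several and 53551 had none here. Symbols were matched by gene ID to the GRCz12tu gene table for 20323 clusters. For 1365 genes with several clusters the one with the highest mean was used, which left 19260 genes.

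R 4.3.3 and limma 3.58.1 were used to fit 1 mean per group over all 15 arrays with an intensity trend in the variance, 2-sided, with Benjamini-Hochberg adjustment within each of 9 comparisons and a threshold of 0.05. The steps were tested on simulated data. Tables were prepared in Python 3.11.15 with pandas 2.3.3, and matplotlib 3.10.9 drew the figures. Alternatives changed the variance model, array weights, scaling, gene summary, features tested, low-value filter, arrays in the fit, a replicate block and an erythroid covariate, and left out each array in turn. The number of arrays limits the precision. All members are described; from each pathway list the 4 genes with the smallest F test p were named, and for each member called in the F test the 3 most correlated genes. The members and lists were chosen with earlier results of these data known.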

Additional observations from a re-analysis of the deposited data

How the results depend on the processing

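No difference of the 9 genes that was called changed its direction under any alternative. Leaving out 1 array in turn, the number of the 9 genes called was 5 to 6 at the end of treatment against control (5 with all arrays), 2 to 4 at 2 days (4), 1 to 3 at 5 days (2) and 1 to 3 at 9 days (3). Against the end of treatment it was 1 to 3 at 2 days (2), 3 to 5 at 5 days (5) and 3 to 6 at 9 days (5). Between 5 and 2 days it was 0 to 0, between 9 and 5 days 1 to 3 (2), and in the F test 5 to 7 (6). With the erythroid median as a covariate the counts were 1 at the end of treatment and 0, 0 and 0 at 2, 5 and 9 days against control, 1 at 2 days against the end of treatment and 1 at 9 against 5 days. At 5 days against the end of treatment only the ddit4 call was lost with this covariate (limma adjusted p = 0.0569). All calls at 9 days against the end of treatment were kept, and foxo1a was added (limma adjusted p = 0.0406). With every transcript cluster tested, which raises the number of tests, the counts were 2 at 2 days and 1 at 9 days against control, 1 at 2 days against the end of treatment and 1 at 9 against 5 days. At 9 days against control the count was also 1 without a variance trend, with array weights, with centred arrays and with only the 2 groups in the fit, which also gave 1 at 9 against 5 days. Without the third of genes that had the lowest means, 1 of the 9 genes was called between 5 and 2 days. Where the settings did not change the number of genes or arrays, the cause was not tested.

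Over all genes the replicate numbers did not pair the samples. The deviations from the group means of 30 same-numbered pairs of arrays correlated at -0.161 to 0.0983 (median -0.0122). For 60 differently numbered pairs the range was -0.125 to 0.143 (median 0.0107). Of 15 arrays, 0 correlated best with their own number. A correlation over all genes cannot show whether single genes followed the replicate number. For ddit4, replicate 3 was the highest pool in each of the 5 groups. With the replicate number as a block, 5, 4, 3 and 2 of the 9 genes were called at the end of treatment and at 2, 5 and 9 days against control, 3, 5 and 5 at 2, 5 and 9 days against the end of treatment, 0 between 5 and 2 days, 3 between 9 and 5 days and 6 in the F test. The block gave calls of ddit4 at 5 days against control (adjusted p = 0.0258, the lowest over all alternatives, with a highest of 0.843), at 2 days against the end of treatment (0.0105, highest 0.416) and at 9 against 5 days (0.025, highest 0.371). The call of fbxo32 at 9 days against control was lost with it (0.0567, range over all alternatives 0.0206 to 0.819).

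Over all genes, with the erythroid covariate 695, 5, 2 and 9 genes were called at the end of treatment and at 2, 5 and 9 days against control, where 4669, 2268, 1227 and 1452 were called without it. At 2 days against the end of treatment the counts with and without it were 279 and 1536, between 5 and 2 days 9 and 36, and between 9 and 5 days 418 and 1178. With every transcript cluster tested, 75212 clusters in place of 19260 genes, 7042 calls were made at the end of treatment against control and 5 between 5 and 2 days. These count clusters, so they cannot be set directly against the gene counts. Without a variance trend 15 genes were called between 5 and 2 days. Only the 2 groups gave 777 at 5 days against control and 636 between 9 and 5 days. At 2 days against control, leaving out control replicate 1 gave 1469 and 2 day replicate 3 gave 1488. At 5 days 762, 755 and 757 were called without control replicate 1, control replicate 3 or 5 day replicate 2, and at 9 days 890, 920 and 713 without control replicate 1, control replicate 2 or 9 day replicate 3. At 2 days against the end of treatment 984 were called without 2 day replicate 1, and between 9 and 5 days 615 and 664 without 5 day or 9 day replicate 3. Between 5 and 2 days 18, 8 and 18 were called without 2 day replicates 1, 2 or 3. Leaving out 5 day replicate 2 or 3 gave 10 and 22 there. Centring arrays on their medians moved the median of all genes at the end of treatment against control to -0.11, against 0.01 as deposited.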
